A study of Drosophila melanogaster with 2 samples.

Results

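Start-proximal intronic peaks of Wdn were defined as binding sites that lie inside an intron but still close to a transcript start. A peak of the main list qualified when its summit, the position of highest signal, lay more than 500 bp and at most 2000 bp from the nearest annotated start on the dm6 build, within a gene body and in no annotated exon. Of the 3254 peaks of the list, 3248 lay on the arms of X, 2 and 3 or on 4 and Y, and 523 of these met the rule. Among listed peaks position alone chose them, while the list itself keeps peaks by the agreement of their ranks between data sets and so favours strong ones. The gene whose body holds a summit is called its host, and 43 of the 523 summits had more than 1 host.

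The peaks came from ChIP-seq of embryos aged 0 to 24 hours, taken whole, from transgenic flies of the strain wdn-GFP. These flies make Wdn as a fusion with eGFP, and chromatin was recovered with an antibody against GFP after sonication, with a labelled size range of 200 to 800. Biological replicates 1 and 2 made up the only group, Wdn-eGFP. A possible control was named but not analysed here, so no comparison with untagged flies was made, and embryos of all stages and tissues were pooled in every value.

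Wdn, encoded by wings down, is a protein of the C2H2 zinc finger family, the largest class of DNA-binding proteins in flies. Such proteins read short DNA words with their fingers, and many of them bind promoters, enhancers or chromatin boundaries. The first introns of Drosophila genes are often long, and they commonly hold enhancers, alternative promoters and sites for insulator proteins. An intronic site near a start can therefore lie inside regulatory DNA of its own host, of an alternative promoter of that host, or of a gene nearby.

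The sequence under the strongest of these peaks was rich in A and T, and where the word ACAGTG occurred it mostly stood to the side of the summit. Sets of windows are shown for that reason, each window of 251 bases centred on the summit, read from the plus strand of the NCBI reference genome (Release 6 plus ISO1 MT, dm6 coordinates). Capitals mark ACAGTG where the word is on the plus strand, and CACTGT where it is on the minus strand. The first set holds 2 of the strongest peaks with ACAGTG on both sides of the summit, a choice made after the word was seen. They lie in intron 1 of NFAT, a transcription factor gene (chrX:13640397-13640647), and of for, the foraging cGMP-dependent kinase gene (chr2L:3655700-3655950).
NFAT: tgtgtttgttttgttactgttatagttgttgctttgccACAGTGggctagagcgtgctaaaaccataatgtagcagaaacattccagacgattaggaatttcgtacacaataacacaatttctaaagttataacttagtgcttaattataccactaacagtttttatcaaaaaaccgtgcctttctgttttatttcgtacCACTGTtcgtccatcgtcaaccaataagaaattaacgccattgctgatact
for: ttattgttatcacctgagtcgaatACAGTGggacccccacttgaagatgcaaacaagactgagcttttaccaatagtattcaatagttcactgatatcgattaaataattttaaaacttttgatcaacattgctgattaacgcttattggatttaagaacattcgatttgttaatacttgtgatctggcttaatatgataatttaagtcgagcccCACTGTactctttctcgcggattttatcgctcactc
In NFAT the word was centred at -84 bp on the plus strand and at 78 bp on the minus strand. In for the positions were -98 and 93 bp, with the same strands.

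The second set holds 2 of the stronger peaks with CACAGTG, 1 base longer, within 50 bp of the summit. They lie in intron 1 of schlank, a ceramide synthase gene (chrX:6265502-6265752), and of larp, an RNA-binding protein gene (chr3R:28328782-28329032).
schlank: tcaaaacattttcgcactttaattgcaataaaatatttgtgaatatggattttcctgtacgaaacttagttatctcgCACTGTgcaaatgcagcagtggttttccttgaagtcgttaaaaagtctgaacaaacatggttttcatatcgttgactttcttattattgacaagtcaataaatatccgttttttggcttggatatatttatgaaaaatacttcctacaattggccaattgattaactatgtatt
larp: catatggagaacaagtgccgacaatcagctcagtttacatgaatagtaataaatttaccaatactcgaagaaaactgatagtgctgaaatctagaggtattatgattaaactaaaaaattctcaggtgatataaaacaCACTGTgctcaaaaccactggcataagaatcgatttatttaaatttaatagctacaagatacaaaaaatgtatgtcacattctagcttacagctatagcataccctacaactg
The third set holds 3 of the strongest peaks with no CACAGTG within 50 bp of the summit. They lie in intron 2 of CG11050 (chr2L:6612581-6612831), intron 1 of CG32772 (chrX:4910249-4910499) and intron 2 of Trl, the GAGA factor gene (chr3L:14759382-14759632).
CG11050: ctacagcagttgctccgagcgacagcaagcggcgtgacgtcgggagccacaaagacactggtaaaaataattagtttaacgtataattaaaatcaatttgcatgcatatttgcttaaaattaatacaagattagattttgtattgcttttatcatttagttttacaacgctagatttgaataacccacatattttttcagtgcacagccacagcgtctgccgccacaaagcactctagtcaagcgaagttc
CG32772: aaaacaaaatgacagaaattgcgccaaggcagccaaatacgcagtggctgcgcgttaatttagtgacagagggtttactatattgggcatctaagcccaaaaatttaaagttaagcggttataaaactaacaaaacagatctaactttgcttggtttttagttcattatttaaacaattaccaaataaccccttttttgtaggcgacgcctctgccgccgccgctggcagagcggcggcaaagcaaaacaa
Trl: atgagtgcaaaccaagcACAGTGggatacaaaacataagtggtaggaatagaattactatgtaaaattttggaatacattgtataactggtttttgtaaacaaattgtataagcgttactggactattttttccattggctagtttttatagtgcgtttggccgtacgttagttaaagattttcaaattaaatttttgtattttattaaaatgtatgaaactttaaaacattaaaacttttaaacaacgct
CG11050 and CG32772, the strongest of all 523, held no ACAGTG in these 251 bases, and Trl held it once, at -105 bp on the plus strand. The CG11050 window takes in a whole intron, which is 140 bp long.

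Ranked peaks in these positions entered the main list more often than those deeper in introns and less often than those at promoters, with intervals that do not overlap. Of 11726 ranked peaks in the same positions, 4.46% were listed (95% exact binomial interval 4.09 to 4.85%), against 1.51% (1.39 to 1.65%) of 36507 distal intronic ranked peaks, whose summits lie more than 2000 bp from any start, and 7.94% (7.58 to 8.31%) of 21479 promoter ranked peaks, within 500 bp of one. Over all 130496 ranked peaks on these chromosomes the share was 2.49%. The 11203 ranked but unlisted peaks in the same positions, called candidates below, served as the background for the shares of positions and of words. In replicate 1's own list 336 peaks met the rule (4.72% of its ranked peaks there), and in that of replicate 2 283 did (3.81%), a mean of 4.26% ± 0.65 (SD, n = 2).

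**Figure D1:**
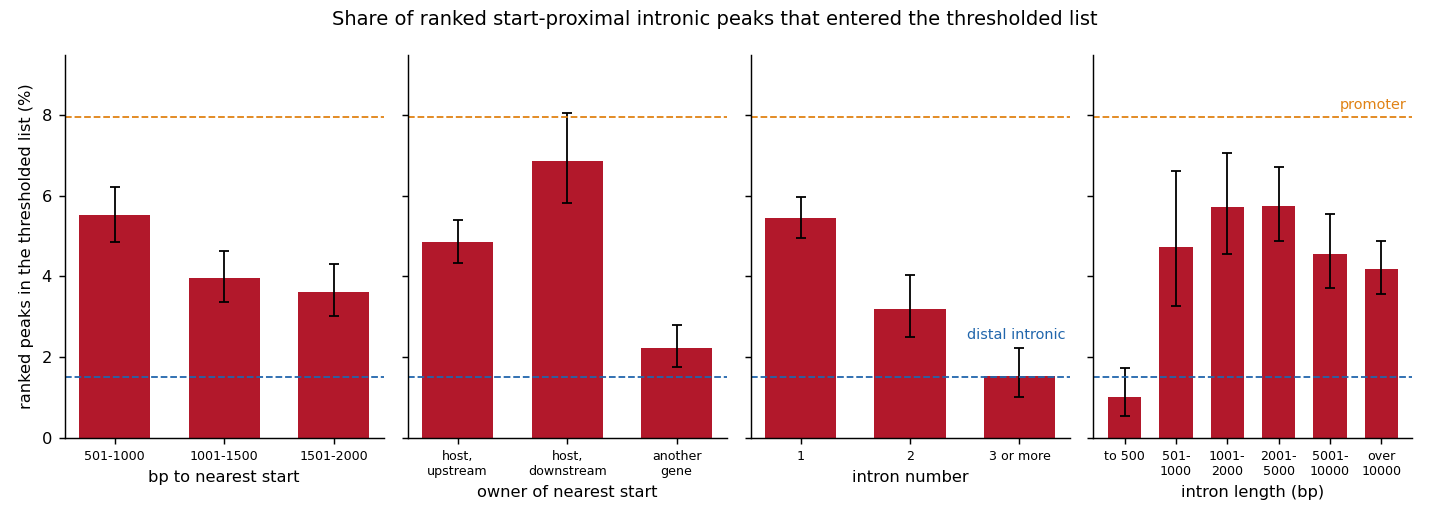
Share of ranked start-proximal intronic peaks that entered the main list (vertical axis, percent) by distance to the nearest start, owner of that start, intron number and intron length. Bars are shares, error bars are 95% exact binomial intervals, and dashed lines mark the shares of promoter (7.94%) and distal intronic (1.51%) peaks. The share falls from intron 1 (5.45%) to intron 3 or later (1.52%) and is lowest in introns of up to 500 bp (1.01%).

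Within the allowed distances the share of listed peaks was highest near the start. It was 5.51% (4.86 to 6.21%) at 501 to 1000 bp, 3.96% (3.36 to 4.64%) at 1001 to 1500 bp and 3.62% (3.02 to 4.30%) at 1501 to 2000 bp. Beyond the limit it was lower, at 2.10% (1.86 to 2.36%) at 2001 to 5000 bp and 1.19% over 5000 bp. Just inside 500 bp the nearest summits were in Pino (502 bp, signal 143), ced-6 (502 bp, 52.6) and Argk1 (504 bp, 20.6), and just outside it in ph-p (498 bp, 827), CG13280 (498 bp, 42.7) and bun (496 bp, 85.7). Just inside 2000 bp they were in ttv (2000 bp, 54.8), lncRNA:CR44320 (1990 bp, 139) and Rtnl1 (1983 bp, 53.8), and just outside it in CG43658 (2008 bp, 69.2), snu (2018 bp, 49.99) and hiw (2022 bp, 136). By chromosome arm the share was 5.48% on X (121 peaks) and 3.89 to 4.56% on the 4 large autosomal arms. None of 17 ranked peaks on chromosome 4 was listed, and a count of 0, taken as 3 counts at most, allows a share of up to 17.6%.

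First introns held most of these peaks, with the intron number taken as the lowest over all host transcripts that span the summit. Of the 523, 428 (81.8%, 78.3 to 85.0%) lay in intron 1 of a host, against 66.3% of candidates (adjusted p = 1.51e-13 by Fisher's exact test, odds ratio 2.29). This and every other Fisher test here was two-sided, with Benjamini-Hochberg adjustment over 20 tests. Peaks and genes are not replicates, so the p-values describe these lists and not the spread between embryo collections. A comparison within distance classes of 250 bp, added after the data were seen, gave an odds ratio of 2.21. A host with more transcripts has more chances of an intron 1. Hosts of listed peaks had a mean of 2.60 annotated starts, against 1.74 for hosts of candidates only. The first-intron share was not compared within classes of equal numbers of starts. Intron 2 held 69 peaks and later introns held 26. The first-intron share was 85.4% in the list of replicate 1 and 83.4% in that of replicate 2 (84.4% ± 1.43, SD, n = 2), against 67.6% ± 1.25 of their candidates. In first introns 6.30% of ranked peaks were listed at 501 to 1000 bp and 4.59% at 1501 to 2000 bp, while in later introns the shares were 3.61% and 1.97%.

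Short introns held few of them, with the length taken from the shortest intron over all host transcripts that span the summit. That intron need not be the one that gave the intron number. Only 13 of the 523 peaks (2.49%) lay in introns of up to 500 bp, against 11.4% of candidates, and the listed share there was 1.01% (0.540 to 1.72%). The strongest peak of all, in CG11050, was 1 of these 13. The listed share was highest in introns of 2001 to 5000 bp (5.74%) and of 1001 to 2000 bp (5.71%). The median intron length was nonetheless close, 4845 bp for the peaks and 4921 bp for candidates. The peaks lay a median of 1006 bp from the 5' splice site of this shortest intron (quartiles 492 and 2103), and candidates a median of 1014 bp.

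The nearest start mostly belonged to the host. For 306 peaks (58.5%, 54.2 to 62.8%) it was a host start upstream of the summit, against 53.7% of candidates, a difference that did not pass the test (adjusted p = 0.0694 by Fisher's exact test, odds ratio 1.22). It passed the exact test when annotated transposable element copies were counted as genes (adjusted p = 0.000405) and when only replicate 2's list was used (adjusted p = 0.0478). With only replicate 1's list the shares were close, 58.0% against 57.1% (odds ratio 1.04). They were also close with a protein-coding annotation, 61.6% against 61.0% (odds ratio 1.03). With limits of 300 and 1500 bp the direction of the difference turned (51.0% against 54.2%). For 143 peaks (27.3%) the nearest start was an alternative start of the host downstream of the summit, against 17.3% of candidates. For the other 74 (14.1%) it belonged to another gene, against 29.0% of candidates. The listed share was 6.87% (5.82 to 8.04%) beside a downstream host start, 4.84% (4.33 to 5.40%) beside an upstream host start and 2.23% (1.75 to 2.79%) beside a start of another gene. It was highest, at 9.98% (8.10 to 12.1%), where a host start lay 501 to 1000 bp downstream. These 3-way shares were not tested. A host start downstream of the summit needs a host with more than 1 start. Hosts of listed peaks had a mean of 2.60 annotated starts, against 1.74 for hosts of candidates only. The shares were not compared within classes of equal numbers of starts.

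Hosts of these peaks often carried Wdn at a promoter as well. The 523 peaks had 460 host genes, 11.6% of the 3963 genes with a ranked peak in these positions, and 447 of the 460 were protein-coding. Of the 460, 165 (35.9%, 31.5 to 40.4%) had a main-list summit within 500 bp of 1 of their own starts, against 19.2% of 3503 hosts of candidates only (adjusted p = 1.51e-13 by Fisher's exact test, odds ratio 2.36). Hosts of listed peaks had a median of 2 annotated starts, against 1 for hosts of candidates only, and were longer, with a median of 14836 bp against 7277 bp. Compared within classes of equal numbers of starts, an alternative added after the data were seen, the odds ratio was 1.81 (adjusted p = 4.40e-07 by a Mantel-Haenszel test, which is not an exact test). Among hosts with a single start the shares were 22.2% of 135 and 14.2% of 1976, and among hosts with 3 starts they were 48.7% of 76 and 26.2% of 355. In each replicate's own list the share of hosts with a promoter peak was 24.2% ± 2.21 (SD, n = 2), against 13.9% ± 1.503 of hosts of candidates only.

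Signal values were spread over a wide range. The value is the authors' own score for a peak, its scale is not stated, and it serves here as a description and a rank inside each list. The 523 peaks had a median of 76.4 (quartiles 57.7 and 116, range 2.81 to 1372), against 71.5 for the 553 distal intronic peaks and 82.5 for the 1705 promoter peaks of the list. Of the 523, 207 (39.6%, 35.4 to 43.9%) overlapped a peak in both replicates' own lists, against 32.2% of distal intronic peaks (adjusted p = 0.0373 by Fisher's exact test, odds ratio 1.38) and 44.3% of promoter peaks (adjusted p = 0.101, odds ratio 0.822). The difference from distal intronic peaks no longer passed the exact test with an overlap of at least 50% of the peak (adjusted p = 0.0694), with a protein-coding annotation (0.0835), with transposable element copies kept (0.0605) or at a global IDR of at most 0.001 (0.211), with odds ratios of 1.31 to 1.40 in these 4. The conservative list kept 393 of the 523 (75.1%), against 76.9% of distal intronic peaks (adjusted p = 0.651 by the same exact test, odds ratio 0.910) and 78.9% of promoter peaks (adjusted p = 0.133, odds ratio 0.809).

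Peaks in both replicates' own lists had higher signals. Those lists also favour strong peaks, so this order follows in part from how they were made. The 207 peaks in both replicates' lists had a median signal of 130 (quartiles 101 and 200), while the 142 in neither had a median of 54.5 (49.6 and 59.8). Another 111 were in replicate 1's list only and 63 in replicate 2's list only. In both replicates 516 peaks overlapped a ranked peak, all from the same pair of libraries. Over them Spearman's rho of the signal values was 0.61, and Pearson's r of their log2 values was 0.69. The main list had kept these peaks by rank agreement, so both coefficients describe kept peaks and not all ranked ones. Replicate 1 gave the higher value in 314 of these 516 peaks, with a median ratio to replicate 2 of 1.11. The median was 43.0 in replicate 1 and 37.9 in replicate 2. With scale and read depth not stated, these values do not rank the replicates by binding.

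**Figure D2:**
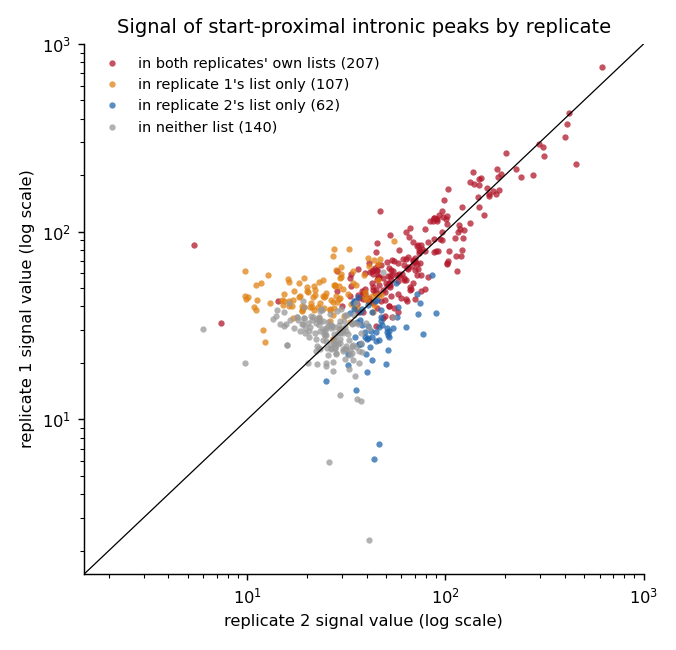
Signal value of each start-proximal intronic peak in replicate 1 (vertical axis, log scale) against replicate 2 (horizontal axis, log scale), for the 516 peaks with a value in both, coloured by the replicates' own lists. The line marks equal values. The 207 peaks in both lists reach the highest values, and the 140 plotted peaks in neither list lie at the low end.

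At the low end, 14 of the 523 peaks had a signal under 20. All 14 overlapped a stronger ranked peak, and all 14 had another main-list summit 199 to 211 bp away. In Wwox, the weakest, the main-list value was 2.81, with 2.28 in replicate 1 and 41.0 in replicate 2, beside a ranked peak of 73.4. Without these 14, an alternative added after the data were seen, the first-intron share was 82.1% and the share of hosts with a promoter peak 35.4%.

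The strongest peak lay in intron 2 of CG11050 on 2L, with its summit at 6612706, 1019 bp downstream of the nearest start. Its main-list signal was 1372, with 752 in replicate 1 and 617 in replicate 2, and the gene also had a promoter peak. CG32772 on X followed, with a main-list signal of 859 in its intron 1, and the replicates were close at 427 and 419. The main-list value was above either replicate's own value in both genes.

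Genes for DNA-binding and chromatin proteins hosted the next 3. The third peak lay in intron 1 of Adf1, which encodes a transcription factor first known from the alcohol dehydrogenase promoter, 772 bp from the start. Its signal was 770, with 374 in replicate 1 and 412 in replicate 2. The peak in intron 2 of Trl, whose product GAGA factor binds GA repeats and opens promoter chromatin, had a signal of 725, with 319 in replicate 1 and 399 in replicate 2, 1542 bp from the nearest start. The fifth lay in the overlapping introns of HmgZ and HmgD, neighbouring genes on opposite strands for small HMG-box proteins that bend DNA. Its signal was 687, and here the replicates were farther apart, at 229 and 456. Adf1 had no promoter peak in the main list, while Trl, HmgZ and HmgD did.

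The 10 peaks after these had signals of 594 to 386. They lay in CG3726 (594), norpA (592), which encodes the phospholipase C of fly phototransduction, CG9663 (584), CG9837 (487), and chif together with Hyls1 (459). The product of chif activates the replication kinase Cdc7, and Hyls1 is a centriole protein. Then came LPCAT (436), a lysophospholipid acyltransferase gene, CHES-1-like (435), a forkhead transcription factor gene, Csk (398), whose product restrains Src kinases, NFAT (389) and KCNQ (386), a potassium channel gene. All 15 were in both replicates' own lists and in the conservative list, 13 lay in a first intron, 9 had a host start upstream as the nearest start, and the hosts of 6 had a promoter peak. For CHES-1-like and KCNQ the nearest start belonged to another gene, lncRNA:CR43287 and mlt.

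**Figure D3:**
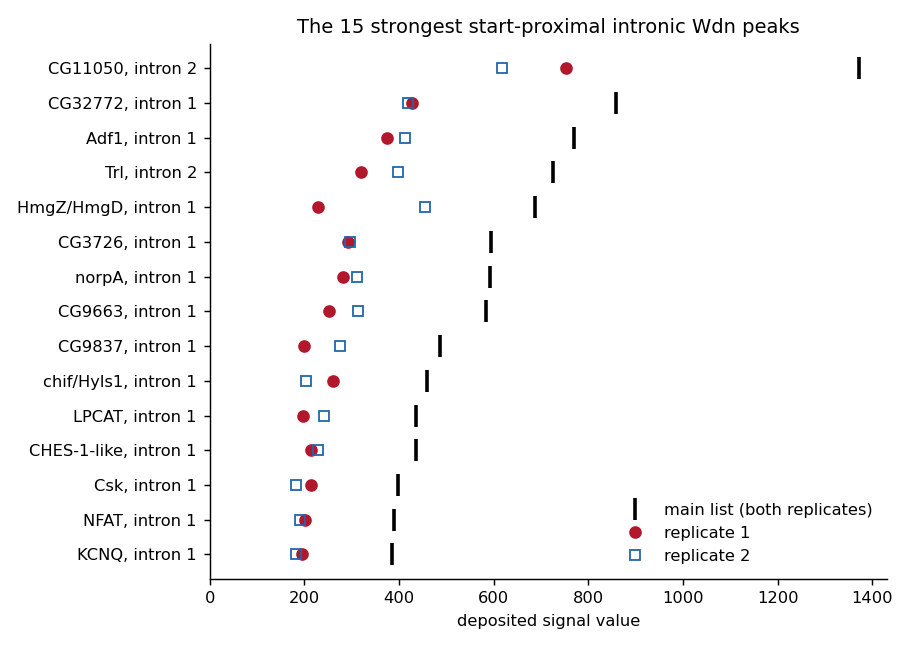
The 15 strongest start-proximal intronic peaks, named by host gene and intron number, with the deposited signal value on the horizontal axis. Bars mark the main list made from both replicates, filled circles replicate 1 and open squares replicate 2. The replicates order most of these peaks alike, and HmgZ/HmgD has the widest gap between them, 229 against 456.

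Some hosts held several of these peaks. Of the 460 hosts, 387 held 1, 52 held 2 and 21 held 3 or more. HmgZ had the highest summed signal among the 21 (1032 over 3 peaks), then CHES-1-like (1007 over 6), HmgD (954 over 3, the same region as HmgZ), Trl (868 over 4) and NFAT (698 over 3). CG1677 and lncRNA:CR44357, which overlap on X, shared 6 peaks with a summed signal of 582. Of the 523 peaks, 57 (10.9%) had another main-list summit within 500 bp, against 8.14% of distal intronic and 7.57% of promoter peaks.

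Genes for insulator and architectural proteins, which hold chromatin domains apart or bring distant sites together, were among the hosts. Of the 6 such genes with a ranked peak in these positions, 4 held a listed one, while over all genes the share was 11.6%. Beside Adf1 and Trl these were mod(mdg4), a BTB protein of the gypsy insulator, and pita, an insulator zinc finger protein. The peak in mod(mdg4) had a signal of 234, with 129 in replicate 1 and 96.0 in replicate 2, and that in pita 57.7, with 38.6 in replicate 1 and 26.2 in replicate 2. No test was made of any gene list, and with 6 genes the 95% exact interval ran from 22.3 to 95.7%. The intervals of the gene lists are not adjusted for the number of lists. The lists were chosen with earlier results of these data known, so a high share in any of them is no independent evidence. The share of all genes is not matched for gene length or number of starts.

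Of the HMG-box, histone variant and remodeller genes 3 of 11 held a listed peak (27.3%, 6.02 to 61.0%). That interval takes in the 11.6% of all genes. The genes were HmgD and HmgZ, which share their strongest peak, and Dsp1, an HMG-box corepressor gene (signal 109, with 61.1 in replicate 1 and 41.8 in replicate 2). Of the Polycomb group genes only ph-p, a subunit of the repressive complex PRC1, held a listed peak, out of 7 (signal 89.1, with 59.1 in replicate 1 and 39.0 in replicate 2). Of the trithorax group genes only kis, a CHD remodeller gene, did so, out of 8 (79.4, with 29.5 in replicate 1 and 51.6 in replicate 2, in intron 11). These last 2 shares, 14.3% and 12.5%, lay near the 11.6% of all genes.

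In the TGF-beta and BMP pathway, which carries signals of secreted ligands through receptor kinases to Smad proteins, 5 of 10 genes held a listed peak (50%, 18.7 to 81.3%), beside 11.6% of all genes. The receptors were wit, the type II receptor of motor neurons (signal 187, with 103 in replicate 1 and 78.9 in replicate 2), and tkv, a type I receptor (53.3, with 23.2 and 30.4). Downstream of them were Mad, the Smad that enters the nucleus (96.0, with 62.1 and 34.3), Dad, an inhibitory Smad (46.6, with 30.4 and 5.96), and shn, a zinc finger partner of Mad (230, with 102 and 124). Only shn and wit also had a promoter peak.

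Receptor tyrosine kinase and insulin pathway genes held listed peaks in 7 of 30 (23.3%, 9.93 to 42.3%), an interval that takes in the 11.6% of all genes, as do those of the next 2 lists. The strongest were InR, the insulin receptor (signal 161, with 99.4 in replicate 1 and 63.4 in replicate 2), and drk, the Grb2 adaptor (155, with 88.1 in replicate 1 and 68.2 in replicate 2). Nuclear receptor and ecdysone response genes did in 5 of 17 (29.4%, 10.3 to 56.0%), which were EcR, the ecdysone receptor (136, with 62.5 in replicate 1 and 70.5 in replicate 2), br, an early ecdysone response factor (105, with 61.9 and 42.8), tai, a receptor coactivator, kay, the fly Fos, and Hr4. Notch pathway genes did in 2 of 11 (18.2%, 2.28 to 51.8%), neur, the ubiquitin ligase that promotes ligand uptake (155, with 58.7 in replicate 1 and 85.6 in replicate 2), and numb, a Notch inhibitor (48.2, with 31.8 in replicate 1 and 22.99 in replicate 2).

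RNA-binding and splicing factor genes held listed peaks in 7 of 27 (25.9%, 11.1 to 46.3%), beside 11.6% of all genes. The strongest were mub, a KH-domain protein (signal 335, with 172 in replicate 1 and 162 in replicate 2), and brat, a translational repressor (249, with 148 in replicate 1 and 98.8 in replicate 2). Axon guidance and cell adhesion genes held them in 5 of 28 (17.9%, 6.06 to 36.9%), near the share of all genes, among them NetB, a netrin (94.9), and its receptor fra (75.1).

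In the other lists the intervals took in the 11.6% of all genes. Cell cycle and replication genes gave 2 of 12 (16.7%, 2.09 to 48.4%), trbl (148), which restrains String phosphatase, and Cdk4 (68.7). Muscle genes gave 1 of 14, the giant nesprin Msp300 (222, in intron 12), and segmentation and homeotic genes 1 of 15, Abd-B (52.4). Wnt and Hedgehog pathway genes gave 0 of 14, which allows a share of up to 21.4%, and ion channel and synapse genes 0 of 18, which allows up to 16.7%. That list holds only some of the channel genes, and hosts outside it included the potassium channel genes KCNQ, Irk1, Elk and Shawl. Cytosolic ribosomal protein genes had only 1 ranked peak in these positions, unlisted, and mitochondrial ones gave 1 of 3, mRpS9 (49.1).

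**Figure D4:**
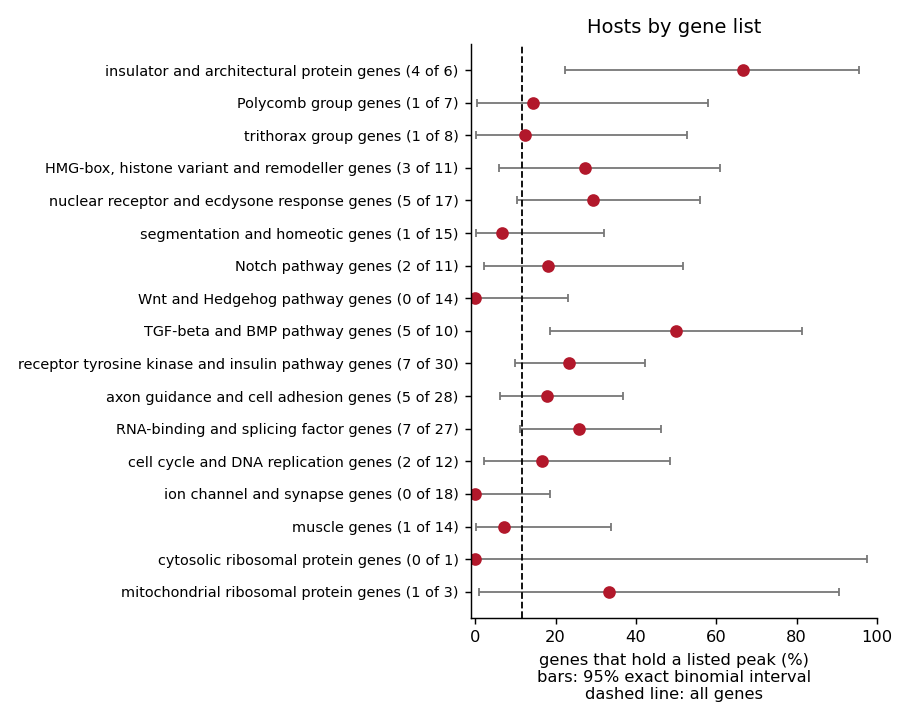
Share of genes with a ranked start-proximal intronic peak that hold a listed one (horizontal axis, percent), by gene list, with 95% exact binomial intervals and the counts beside each name. The dashed line marks all genes (11.6%). Most intervals reach the line, and those of the insulator (22.3 to 95.7%) and TGF-beta (18.7 to 81.3%) lists lie above it. The intervals are not adjusted for the number of lists, and no list was tested. The lists were chosen with earlier results of these data known.

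The summits themselves sat in a narrow stretch of A and T. Within 50 bp of the summit the A+T content averaged 65.3% ± 9.56 (SD over 523 peaks), against 57.0% ± 8.68 for candidates, and 500 bp away it was 58.0% on both sides of the listed peaks. Distal intronic peaks averaged 64.9% and promoter peaks 63.3%, so the A+T core was shared by all 3 positions. In bins along the sequence it rose from 58.0% at -125 bp to 66.7% at the summit, then fell to 58.6% at 125 bp. The 50 strongest of the 523 peaks averaged 69.4% and the 50 weakest 61.1%. Peaks in both replicates' lists averaged 67.6% and those in neither 62.4%. In the replicates' own lists the mean was 65.9% and 67.8% (66.8% ± 1.35, SD, n = 2).

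Some words made of A and T were more frequent than around candidates, and others did not pass the test. Each motif was looked for on either strand, no farther than 50 bp from the summit. TATAAA was present in 18.4% of peaks, against 10.3% of candidates (adjusted p = 2.61e-07 by Fisher's exact test, odds ratio 1.96), and TTAAAAAA in 6.12% against 1.78% (adjusted p = 6.81e-08, odds ratio 3.60). Distal intronic peaks held TATAAA in 22.6% and TTAAAAAA in 5.24%, and promoter peaks in 20.6% and 6.39%, so neither word was particular to these positions. GCCAT was present in 11.7% against 20.9% (adjusted exact p = 2.61e-07, odds ratio 0.499) and CACACACA in 0.956% against 3.48% (adjusted p = 0.00227, odds ratio 0.268). Compared within classes of equal GC content, 4 percentage points wide, none of these 4 passed a Mantel-Haenszel test. The odds ratios were then 0.835 for TATAAA (adjusted p = 0.245, not an exact test), 1.31 for TTAAAAAA, 0.743 for GCCAT and 0.506 for CACACACA. AAAAAAAA was found in 7.07% of peaks against 6.03% of candidates (adjusted exact p = 0.464, odds ratio 1.19), and within GC classes its odds ratio was 0.603 (adjusted p = 0.0235 by the Mantel-Haenszel test).

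Words of some other well-known fly factors did not pass the test against candidates within 50 bp of these summits. TATCGATA, the word of DREF, was found in 0 of 523 peaks, which allows a share of up to 0.574%, against 0.205% of candidates, and CAGGTAG, the word of Zelda, in 0 of 523 against 0.571% (adjusted p = 0.693 and 0.182 by Fisher's exact test). GAGAG, bound by GAGA factor, was found within 50 bp in 10.9% of peaks against 12.8% of candidates (adjusted exact p = 0.323, odds ratio 0.835), and within 150 bp in 42.3% against 33.1%, which was not tested. The shares were 9.94% against 10.6% for CGATA, 0.765% against 0.750% for GGTCACA, 0.956% against 1.39% for CACGTG and 1.91% against 0.964% for TATATTAA, and none of these passed the test. Promoter peaks held TATCGATA in 2.52% and CGATA in 17.4%, and distal intronic peaks held CGATA in 11.8%. No match says only that the letters were not in this window.

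The result for CACAGTG turned on the window and on the list. Within 50 bp of the summit 16 peaks held it (3.06%, 1.76 to 4.92%), against 1.62% of candidates (adjusted p = 0.0544 by Fisher's exact test, odds ratio 1.91). Within GC classes the odds ratio was 2.70 (adjusted p = 0.000782 by the Mantel-Haenszel test, not an exact test). Within 100 bp 9.94% of peaks held it, against 3.20% of candidates (adjusted exact p = 3.56e-11, odds ratio 3.33). In the replicates' own lists the share within 50 bp was 2.08% against 1.81% of candidates in replicate 1 (odds ratio 1.15, adjusted exact p = 1) and 2.47% against 1.83% in replicate 2 (odds ratio 1.36, adjusted exact p = 0.494). The 16 peaks had a median signal of 71.4, against 76.6 for the peaks without the word. The motifs, CACAGTG among them, were chosen with earlier results of these data known. The p-values for CACAGTG are therefore no independent evidence.

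The word stood beside the summit, on either side of it. This was followed with the 6-base core ACAGTG, contained in CACAGTG. The core and the distances were chosen after the data were seen, so the counts are given with no test. Within 50 bp 45 peaks (8.60%) held the core, and within 150 bp 174 did (33.3%, 29.2 to 37.5%), against 4.62% and 12.7% of candidates. Distal intronic peaks gave 28.0% within 150 bp and promoter peaks 25.3%. In 50-bp bins the core occurred 9.37 times per 100 peaks at -100 bp, 3.44 times at the summit and 9.56 times at 100 bp, while the bins beyond 200 bp on either side gave 1.15 to 3.25. Candidates gave 1.65 to 2.70 in every bin. The core stood on both sides of the summit, 25 to 175 bp away, in 48 of the 523 peaks (9.18%), against 0.723% of candidates, 7.41% of distal intronic peaks and 3.87% of promoter peaks.

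The strand of the core depended on its side. To the left of the summit, 25 to 175 bp away, 98 copies read ACAGTG on the plus strand and 33 on the minus strand. To the right 28 read it on the plus strand and 91 on the minus strand. In 189 of 250 copies (75.6%) the 3' end of ACAGTG therefore pointed to the summit, as in the windows of NFAT and for. The share was 53.0% of 1622 copies around candidates, 79.0% around distal intronic peaks and 69.5% around promoter peaks. In the replicates' own lists it was 80.0% of 175 copies in replicate 1 and 81.4% of 156 in replicate 2. Around the 175 peaks with the highest signal it was 79.4%, and around the 174 with the lowest 67.7%. For CACAGTG the order was the other way, 65.2% of 46 copies around the strongest and 80.0% of 20 around the weakest. The core lay within 150 bp in 38.9% of those 175 peaks and in 25.9% of those 174.

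A longer form of the core showed the same side and strand more sharply. GTACAGTGG, which contains the core and was also chosen after the data were seen, occurred 25 times at 25 to 175 bp from the 523 summits. Of these copies 17 lay to the left on the plus strand and 7 to the right on the minus strand, leaving 1 copy the other way round. Around the 11203 candidates it occurred 39 times, with 22 pointing to the summit. GAGAG was likewise less frequent at the summit, with 7.27 copies per 100 peaks, against 22.0 at -100 bp and 25.05 at 150 bp. Unlike the core it was also frequent farther out, with 20.1 at -450 bp, 22.0 at -300 bp and 15.9 at 450 bp, and 53.6% of its copies at 25 to 175 bp pointed to the summit. Candidates had 8.40 to 10.51 copies of GAGAG per 100 peaks in every bin. The dip was also seen elsewhere in the list. Distal intronic peaks had 5.42 copies at the summit and 15.4 at -100 bp, and promoter peaks 8.91 and 17.6.

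**Figure D5:**
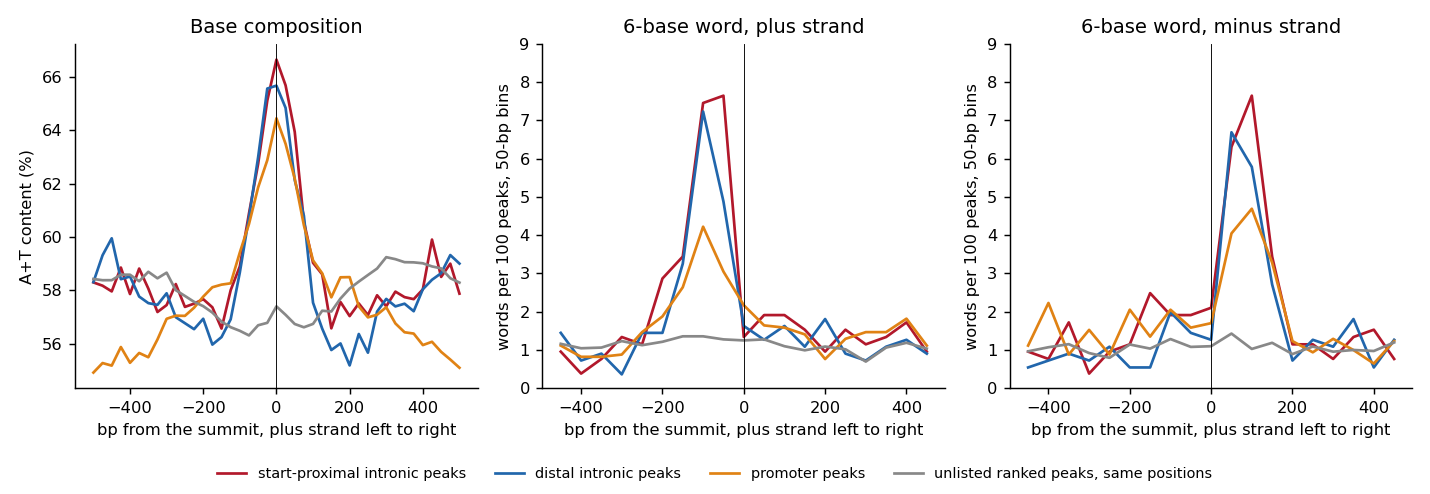
Sequence around the summits of start-proximal intronic, distal intronic and promoter peaks of the main list and of candidates. Left, A+T content (percent), and middle and right, copies of the 6-base word ACAGTG per 100 peaks in 50-bp bins on the plus and on the minus strand, against distance from the summit in bp. The A+T content of start-proximal intronic peaks is highest at the summit (66.7%), while the word is most frequent to the left of it on the plus strand and to the right of it on the minus strand.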

How the data were processed

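ChIP-seq of Wdn-eGFP was available as peak lists from 2 biological replicates of 1 group, on dm6 per the file names and labels. The deposited lists give for each peak a signal value and a score made by the authors from the irreproducible discovery rate (IDR), which compares peak ranks between data sets. The score reaches 1000 at most. The authors' ranked lists add a column with the −log10 of the global IDR, which ends at 5. The main list is the thresholded one made from both replicates, without the word conservative in its name. Aligner, peak caller, versions and read depth are not given in the sources used here, so depth is unknown, and intervals cover counting error only. In the ranked lists 8 columns of per-sample values carry no sample label and were not used.

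Summits were assigned with Ensembl release 115 genes, annotated transposable element copies left out, using Python 3.11.15, pandas 2.3.3, scipy 1.17.1 and statsmodels 0.14.6. The tests were tested on simulated data. A replicate's value for a peak is that of its overlapping ranked peak with the nearest summit, which can be a shoulder. The peaks, gene lists and motifs were chosen with earlier results of these data known. Windows are printed for some of the stronger peaks of each kind, none from arm 2R. Results on 1 gene list and on a few items the naming rules would include are not reported here. One listed symbol, calypso, found no match in the annotation. Genes named are hosts of the 15 strongest peaks, the 2 strongest peaks of each gene list, the 5 hosts of 3 or more peaks with the highest summed signal, and peaks nearest the distance limits. Genes beyond these were named after their values were seen, where a count was 5 or fewer or a value was singled out. Alternatives covered the list, IDR limit, single replicates, distance limits, annotation, overlap, window and background.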

Additional observations from a re-analysis of the deposited data

How the results depend on the processing

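No paired analysis was possible because the study has a single group. Over 86 alternative values of 9 results, 57 counted as unchanged. Tested shares did so when they kept their direction and side of the threshold, and other values when they moved within the replicates' spread. The number of peaks was judged by a fixed factor instead. Under it the 432 peaks that met the rule in the conservative list counted as unchanged beside 523. The first-intron share (80.5 to 85.4%) and the share of hosts with a promoter peak (22.6 to 45.8%) passed under all 10 alternatives of each. No alternative for the first-intron share matched the number of starts. The highest host share came with limits of 300 and 1500 bp, where the summit and promoter windows overlap. At a global IDR of at most 0.001 there were 266 peaks, 2.27% of the ranked ones, with an A+T content of 67.4%, and 75.9% were in both replicates' own lists, no longer past the threshold against distal intronic peaks. The single-replicate lists gave 283 to 336 peaks, 3.81 to 4.72% of ranked peaks, an A+T content of 65.9 to 67.8%, 58.0 to 59.7% with an upstream host start and 2.08 to 2.47% with CACAGTG, whose odds ratio fell to 1.15 and 1.36, against 1.91 in the main list. With limits of 300 and 1500 bp 5.203% were listed, and the share with an upstream host start, 51.0%, was below that of candidates. The share in both replicates' lists lost its call with a protein-coding annotation (39.4%), with transposable element copies kept (39.0%) and with an overlap of at least 50% (38.05%). The share with CACAGTG gained one in the conservative list (3.70%), with a protein-coding annotation (3.35%), with transposable element copies kept (3.16%), without low-signal peaks (3.14%), within GC classes (3.06%) and within 100 bp (9.94%), where the A+T content was 63.1%. With transposable element copies kept, 55.9% had an upstream host start, past the threshold. Keeping these copies, leaving out low-signal peaks and the distance and start classes were chosen after seeing the data, and the causes were not tested. ACAGTG within 150 bp was found in 31.8 to 37.2% under 9 alternatives. Read depth is unknown, so what it limits cannot be stated.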

Other observations

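Ranked peaks outside the main list included 15 in start-proximal intronic positions whose global IDR met the limit of 0.01. They were counted among the candidates above. Over all positions on the placed chromosomes there were 113 such peaks. The strongest of the 15 lay in intron 1 of ush, a zinc finger cofactor of GATA factors, with a signal of 1203, and in intron 1 of Lk6, a kinase gene, with 822. Both values exceeded that of Adf1, the third strongest listed peak. The other 13 had signals of 32.4 to 167. Adding all 15 gave 538 peaks, of which 82.0% lay in a first intron. Why the list lacks them was not tested.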
